A study of Mus musculus with 8 samples.

Results

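The genes described here are 10 regulators of apoptosis of the BCL2 family, given by name: the pro-survival genes Bcl2, Bcl2l1 (which encodes BCL-XL) and Mcl1, the effector genes Bax and Bak1, and the BH3-only genes Bid, Bcl2l11 (BIM), Pmaip1 (NOXA), Bbc3 (PUMA) and Bmf. All 10 were among the 24411 genes of the table, and all 10 passed the low-count filter that left 12122 genes tested. RNA was sequenced from primary mouse hepatocytes, the main functional cells of liver, in 4 wild-type libraries and in 4 libraries of a conditional knockout that removes Taf2 in hepatocytes. Cells of both genotypes were harvested 2 days after plating. Taf2 encodes a subunit of TFIID, the complex that places RNA polymerase II at core promoters. The sources used here do not name the Cre driver, the exons removed, the age of the mice or any conditional allele in the wild type, and do not state whether each library came from a separate animal. The p-values below therefore measure the spread between these libraries, which may be technical.

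BCL2 family proteins decide whether the outer mitochondrial membrane stays closed. BAX and BAK form the pores through which cytochrome c leaves mitochondria. Pro-survival proteins such as BCL2, BCL-XL and MCL1 hold them in check, and BH3-only proteins, which sense particular stresses, bind the pro-survival proteins or activate BAX and BAK directly. Hepatocytes are known to depend on BCL-XL and MCL1, and BID links their death receptors to mitochondria.

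Library totals lay between 18947060 and 23933585 counts. Taf2 counts ranged from 865 to 979 in the wild-type libraries and from 269 to 329 in the knockout libraries (log2 fold change -1.66, SE 0.061), so each library matched its label. All 16 hepatocyte markers listed passed the filter, and their summed level ran from 71610 to 76588 CPM (counts scaled to equal library totals by TMM) in wild-type libraries and from 86058 to 93206 CPM in knockout libraries, with 9 higher and 4 lower. Without albumin (Alb) the other 15 summed to 35005 to 36486 CPM and, lower, 32629 to 33796 CPM. Markers of other cells differed between the genotypes in both directions. The summed macrophage markers ran from 90.9 to 119.5 CPM and from 248 to 279 CPM, with 15 of 15 tested genes higher. Most of these sums was Cd68, which averaged 84.1 CPM in wild-type and 172 CPM in knockout libraries. Endothelial markers ran from 79.8 to 87.6 CPM and from 203 to 211 CPM, with 14 of 15 higher. Stellate cell markers ran from 73.1 to 78.6 CPM and from 149 to 163 CPM, with 13 of 15 higher and 1 lower. Most of these sums was Reln, which averaged 61.7 CPM in wild-type and 102 CPM in knockout libraries. None of the genes of these 3 lists was at 0 in every library. Some of their tested genes passed the filter only through the knockout libraries, so they could only be higher. Examples are Adgre1 and Lum, at most 0.365 and 0.104 CPM in wild-type libraries. The summed levels include all listed genes of the table, tested or not. Summed lymphocyte markers stayed at or below 0.243 CPM in every library, with 11 of the 16 in the table at 0 throughout. Of the cholangiocyte markers tested, 2 were higher and 4 lower (summed level 157 to 173 and 184 to 215 CPM), and the 2 erythroid genes tested were lower (33.4 to 35.9 and 25.3 to 27.1 CPM). Neutrophil markers summed to at most 0.562 CPM in wild-type libraries and 2.35 CPM in knockout libraries. In bulk samples such as these, more cells of a type and more RNA per cell cannot be told apart.

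The BCL2 family genes that moved most were of low level, and the abundant members moved little. Bcl2l11 and Bmf were 2.77-fold and 2.67-fold higher in the knockout, Bbc3 was 1.37-fold higher, and Bcl2 fell by 60.9%. Mcl1, Bax and Pmaip1 passed the test with changes of at most 15.3%, and Bcl2l1, Bak1 and Bid did not pass. In all, 7 of 10 members had an edgeR adjusted p under 0.05 (the quasi-likelihood test with Benjamini-Hochberg adjustment over all genes tested), against 61.4% of all genes tested. Of these, 5 were higher (30.2% of all genes) and 2 were lower (31.2% of all genes). The 5 became 4 with DESeq2, without knockout replicate 1, 2, 3 or 4, and without wild-type replicate 1 or 3. They became 3 without wild-type replicate 4. The 2 became 1 with upper-quartile scaling, without knockout replicate 2 or without wild-type replicate 3. The levels of the genotypes did not overlap for 5 members, against 54.7% of all genes, 26.9% being higher and 27.8% lower. Both shares are near those of the whole table, so the count of members that passed is no result about the family. The median log2 fold change was 0.077 over the members and -0.0035 over all genes tested.

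**Figure D1:**
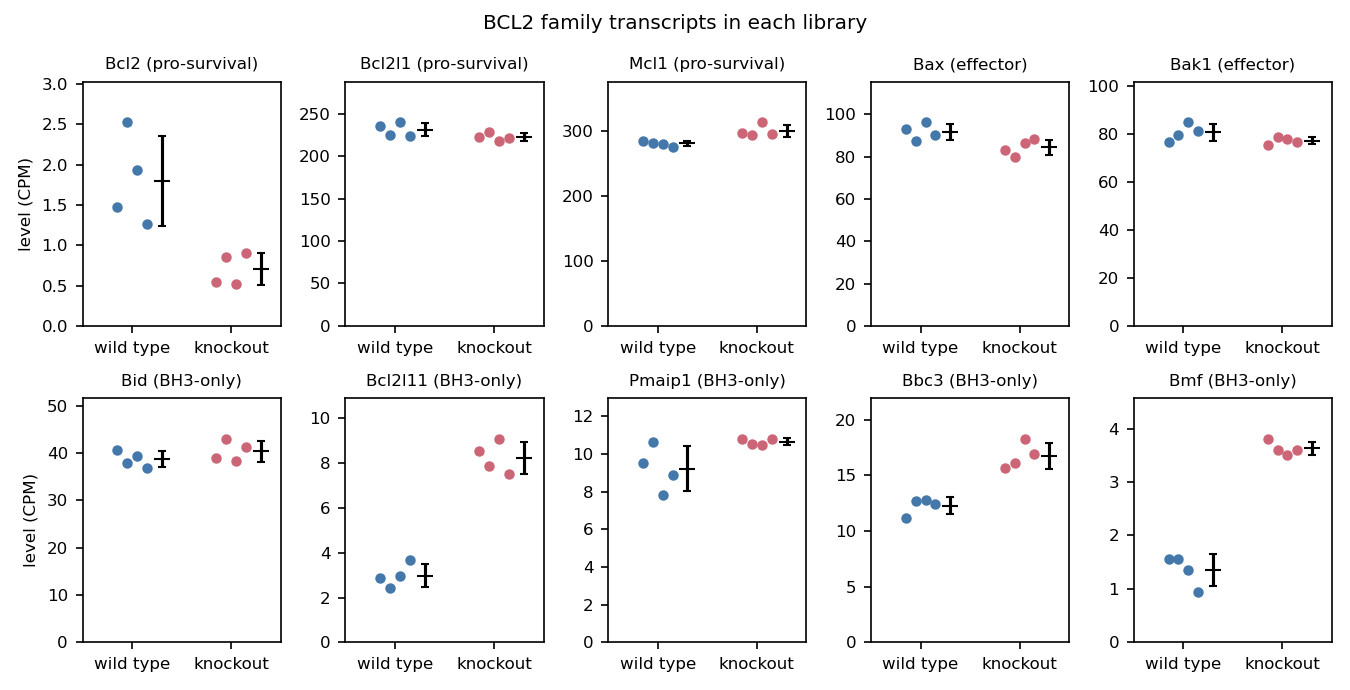
Level of each of the 10 genes (CPM, on a linear axis from 0) in the 4 wild-type and 4 knockout libraries. Points are libraries, and the bars are the mean and SD of 4. Bcl2l11, Bbc3 and Bmf lie higher in every knockout library than in any wild-type library, and Bcl2 lies lower in every knockout library.

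Among the BH3-only genes, Bcl2l11 showed the largest rise. BIM, its product, binds all the main pro-survival proteins and can activate BAX. Its level was 2.86, 2.43, 2.98 and 3.65 CPM in wild-type replicates 1 to 4 and 8.55, 7.84, 9.08 and 7.48 CPM in knockout replicates 1 to 4. Every knockout library was above every wild-type library. The means were 2.98 ± 0.507 and 8.24 ± 0.713 CPM (SD, n = 4 each), with a log2 fold change of 1.47 (SE 0.12, 95% interval 1.23 to 1.71; edgeR adjusted p = 9.72e-10). Of all genes tested, 5.61% changed by as much or more in either direction. The counts behind these levels were 50 to 78 per wild-type library and 157 to 210 per knockout library.

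Bmf rose by nearly the same factor. BMF is held at the cytoskeleton by a dynein light chain until it is released. Its level was 1.56, 1.56, 1.36 and 0.937 CPM in the wild-type libraries and 3.81, 3.60, 3.50 and 3.60 CPM in the knockout libraries. Again the genotypes did not overlap. The log2 fold change was 1.42 (SE 0.16, 95% interval 1.09 to 1.74; edgeR adjusted p = 1.39e-07), from 20 to 36 counts per wild-type library and 72 to 90 per knockout library. The count ratio of Bmf to Bcl2l11, which does not depend on library scaling, was 0.256 to 0.640 in the wild type and 0.386 to 0.481 in the knockout, and these ranges overlap.

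Bbc3, a p53 target whose product PUMA binds all the main pro-survival proteins, rose less. Its level was 11.1, 12.7, 12.8 and 12.5 CPM in the wild-type libraries and 15.7, 16.1, 18.3 and 16.9 CPM in the knockout libraries. The groups did not overlap, and the log2 fold change was 0.45 (SE 0.071, 95% interval 0.30 to 0.60; edgeR adjusted p = 1.62e-05). Macrophage, endothelial and stellate cell markers, given above, rose in the same libraries as Bcl2l11, Bmf and Bbc3. The medians over tested genes were 2.53, 1.60 and 2.18 on the log2 scale. They include genes that passed the filter only through the knockout. The part of these markers in the rise of Bcl2l11, Bmf and Bbc3 was not tested.

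Pmaip1, which encodes NOXA, a BH3-only protein that binds mainly MCL1, stood at 9.50, 10.6, 7.83 and 8.90 CPM in the wild-type libraries and at 10.8, 10.5, 10.5 and 10.8 CPM in the knockout libraries. Wild-type replicate 2 lay within the range of the knockout. The log2 fold change was 0.20 (SE 0.084, 95% interval 0.030 to 0.38; edgeR adjusted p = 0.0407). The call held in 9 of 16 alternatives, with adjusted p from 0.00793 to 0.183. It ended with DESeq2 (adjusted p = 0.0664) and without knockout replicate 1, 2 or 4 or wild-type replicate 1, 3 or 4, and without wild-type replicate 3 the change was 0.14 (edgeR adjusted p = 0.183).

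Bid encodes the BH3-only protein that caspase-8 cleaves to carry a death receptor signal to mitochondria. Its level was 40.7, 37.96, 39.4 and 36.8 CPM in the wild-type libraries and 38.9, 43.02, 38.3 and 41.4 CPM in the knockout libraries. These ranges overlap, and the log2 fold change of 0.059 had a 95% interval of -0.042 to 0.16 (edgeR adjusted p = 0.304). At this precision a rise of more than 0.16 or a fall of more than 0.042 on the log2 scale lies outside the interval. Of the annotated exon bases of Bid, 17.7% overlap Bcl2l13 on the opposite strand, and the sources used here do not state whether the counting used strand.

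**Figure D2:**
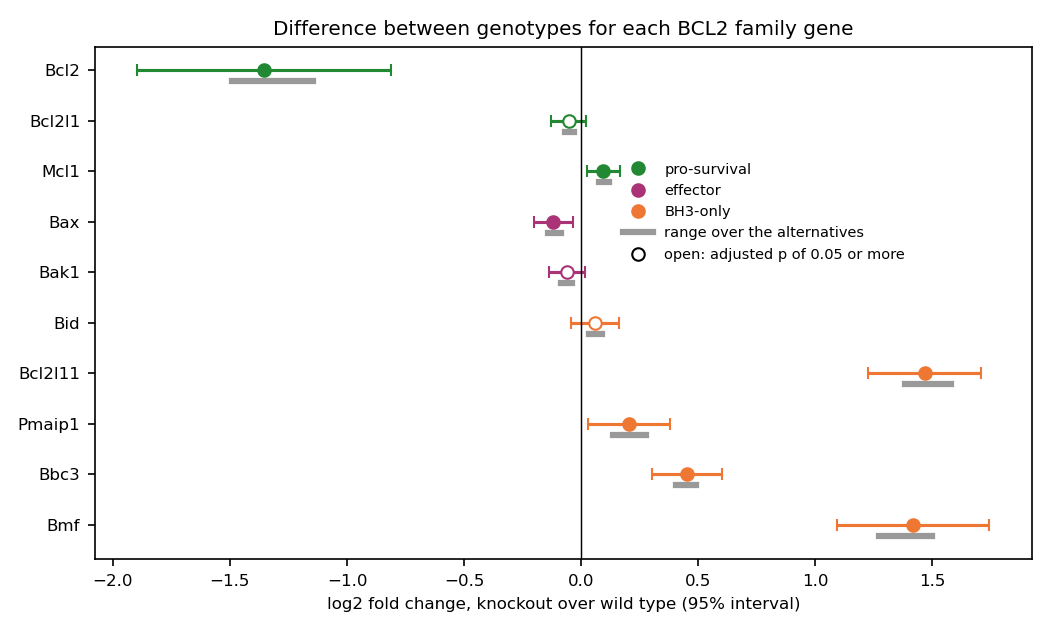
Log2 fold change of each gene, knockout over wild type, from the edgeR fit across all genes. Bars are 95% intervals, filled points have an adjusted p under 0.05, and grey lines give the range over the 16 alternatives. Bcl2l11 at 1.47, Bmf at 1.42 and Bcl2 at -1.35 stand far from 0, and the other 7 genes lie between -0.12 and 0.45.

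The promoter sequences of the 3 BH3-only genes whose levels did not overlap, and of Bcl2, are shown because these 4 genes changed most. They come from RefSeq (build GRCm38.p6). Windows were looked up for 9 of the 10 genes, and Pmaip1 was left out, so its windows are not described. The stretches run 5′ to 3′ on the gene's own strand through the 250 bases before an annotated start, 249 for Bmf because its last base is exonic. Capitals mark TGTTTAC or its reverse complement GTAAACA, a core motif of FOXO factors, for which Bcl2l11 and Bbc3 are known targets. Shown are the upstream one of 2 windows for Bcl2l11, the one of 3 with the motif for Bbc3, and the farthest upstream of 3 for Bmf. The table does not say which start the counted transcripts used.
Bcl2l11, chr2:128125788-128126037, plus strand: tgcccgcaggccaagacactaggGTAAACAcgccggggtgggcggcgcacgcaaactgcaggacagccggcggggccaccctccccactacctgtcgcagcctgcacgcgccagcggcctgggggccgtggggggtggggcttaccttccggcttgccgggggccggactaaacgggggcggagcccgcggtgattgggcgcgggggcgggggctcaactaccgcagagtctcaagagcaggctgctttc
Bbc3, chr7:16310011-16310260, plus strand: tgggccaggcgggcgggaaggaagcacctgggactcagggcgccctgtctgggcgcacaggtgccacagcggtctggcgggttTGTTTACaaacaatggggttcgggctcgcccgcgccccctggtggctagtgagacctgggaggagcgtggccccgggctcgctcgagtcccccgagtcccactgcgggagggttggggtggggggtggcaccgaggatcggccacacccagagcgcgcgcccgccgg
Bmf, chr2:118549688-118549936, minus strand: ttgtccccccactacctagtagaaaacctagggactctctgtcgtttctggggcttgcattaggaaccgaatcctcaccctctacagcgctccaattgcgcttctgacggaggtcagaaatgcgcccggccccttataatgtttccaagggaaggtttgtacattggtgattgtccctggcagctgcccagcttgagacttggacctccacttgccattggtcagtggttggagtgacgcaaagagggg
Bcl2, chr1:106714291-106714540, minus strand: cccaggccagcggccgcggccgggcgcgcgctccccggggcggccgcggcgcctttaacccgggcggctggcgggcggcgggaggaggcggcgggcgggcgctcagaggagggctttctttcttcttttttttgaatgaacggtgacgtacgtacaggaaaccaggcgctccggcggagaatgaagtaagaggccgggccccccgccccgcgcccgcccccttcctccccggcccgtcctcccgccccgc

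The motif was found in 2 of the 16 windows of the 9 genes, against 3.17% of the 32851 windows of all genes with both strands searched. It was chosen after the start of the Bcl2l11 window had been seen. Its first base lies 227 bases before the annotated start in Bcl2l11 and 167 bases before it in Bbc3. TATAAA, the TATA box that TFIID's subunit TBP binds, was found on either strand in 0 of the 16 windows and in 12.4% of all windows. GGGCGG or CCGCCC, the GC box, was found in 9 of the 16 windows and in 32.7% of all windows, with 7 matches in the Bcl2 window. CCAAT or ATTGG, the CCAAT box, was found in 5 of the 16 windows and in 33.8% of all windows. No match of a motif overlapped a match of another motif in these windows, though some windows of a gene overlap each other. Of the windows shown, the GC content was 74.8% for Bcl2, 72.0% for Bcl2l11, 72.4% for Bbc3 and 54.0% for Bmf. The median of all windows was 52.4%. The part of GC content in the number of GC box matches was not tested. These matches describe the letters only. Foxo1 transcripts averaged 80.97 ± 3.16 CPM in wild-type libraries and 83.4 ± 5.37 CPM after knockout (edgeR adjusted p = 0.41) and did not pass the test, and Foxo3 rose by 0.42 on the log2 scale (SE 0.073). The choice to name these FOXO genes was made with their values known.

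Of the pro-survival genes, Bcl2 fell and was near the limit of the filter. Its level was 1.48, 2.53, 1.93 and 1.26 CPM in the wild-type libraries and 0.550, 0.849, 0.519 and 0.900 CPM in the knockout libraries. No knockout library reached the lowest wild-type library. The log2 fold change was -1.35 (SE 0.26, 95% interval -1.90 to -0.81; edgeR adjusted p = 0.000138). It rests on 27 to 52 counts per wild-type library and 12 to 19 per knockout library. The annotation places an antisense transcript, D630008O14Rik, over 6.09% of the exon bases of Bcl2.

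Bcl2l1 was abundant and did not pass the test. Its level was 235, 225, 240.1 and 224 CPM in the wild-type libraries and 223, 229, 218 and 221 CPM in the knockout libraries. The ranges overlap, and the log2 fold change of -0.054 had a 95% interval of -0.13 to 0.020 (edgeR adjusted p = 0.198). BCL-XL and the shorter BCL-XS come from the same gene by splicing, and gene counts do not separate them.

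Mcl1, whose protein is short-lived and is controlled largely by its breakdown, was the most abundant member in counts. Its level was 285, 281, 280.2 and 276 CPM in the wild-type libraries and 296, 294, 313 and 294 CPM in the knockout libraries. Each knockout library was above each wild-type library, by a small margin. The log2 fold change was 0.095 (SE 0.034, 95% interval 0.023 to 0.17; edgeR adjusted p = 0.0216). Without knockout replicate 3, the highest, it was 0.077 (edgeR adjusted p = 0.0709), and without wild-type replicate 4 the adjusted p was 0.0628.

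Of the effector genes, Bax was slightly lower and Bak1 did not pass the test. Bax was at 93.02, 87.2, 96.3 and 90.05 CPM in the wild-type libraries and at 83.2, 79.7, 86.3 and 88.2 CPM in the knockout libraries. Knockout replicate 4 lay above wild-type replicate 2, so the ranges overlap. The log2 fold change was -0.12 (SE 0.040, 95% interval -0.20 to -0.035; edgeR adjusted p = 0.0146). The call ended with upper-quartile scaling (edgeR adjusted p = 0.0504), without knockout replicate 2 (0.0703) and without wild-type replicate 3 (0.06).

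Bak1 was at 76.8, 79.8, 84.9 and 81.1 CPM in the wild-type libraries and at 75.5, 78.6, 78.03 and 76.8 CPM in the knockout libraries. It did not pass the test, with a log2 fold change of -0.061 (95% interval -0.14 to 0.015; edgeR adjusted p = 0.156). Exons of Ggnbp1, on the opposite strand, overlap 7.35% and 18.2% of the exon bases of Bak1, as separate entries of the annotation. As for Bid, whether the counting used strand is not stated. For Bax, the annotated gene Gm45808 covers 12.2% of the exon bases on the same strand.

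Ratios of counts within a library are free of scaling between libraries. Bax over Mcl1 ran from 0.311 to 0.344 in the wild type and from 0.272 to 0.2995 in the knockout, without overlap. Bcl2l1 over Mcl1 ran from 0.803 to 0.857 and from 0.698 to 0.779, also without overlap. Mcl1 thus made up more of each pair in every knockout library than in any wild-type library. Bax over Bcl2 ran from 34.5 to 71.2 in the wild type and from 93.9 to 166 in the knockout, where the denominator rests on 12 to 52 Bcl2 counts. Bcl2l11 over Bcl2l1 ran from 0.0108 to 0.0163 and from 0.0338 to 0.0416, a 2.89-fold difference between the means. Bak1 over Bax, Bax over Bcl2l1, and Bbc3 over Pmaip1 overlapped between the genotypes.

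**Figure D3:**
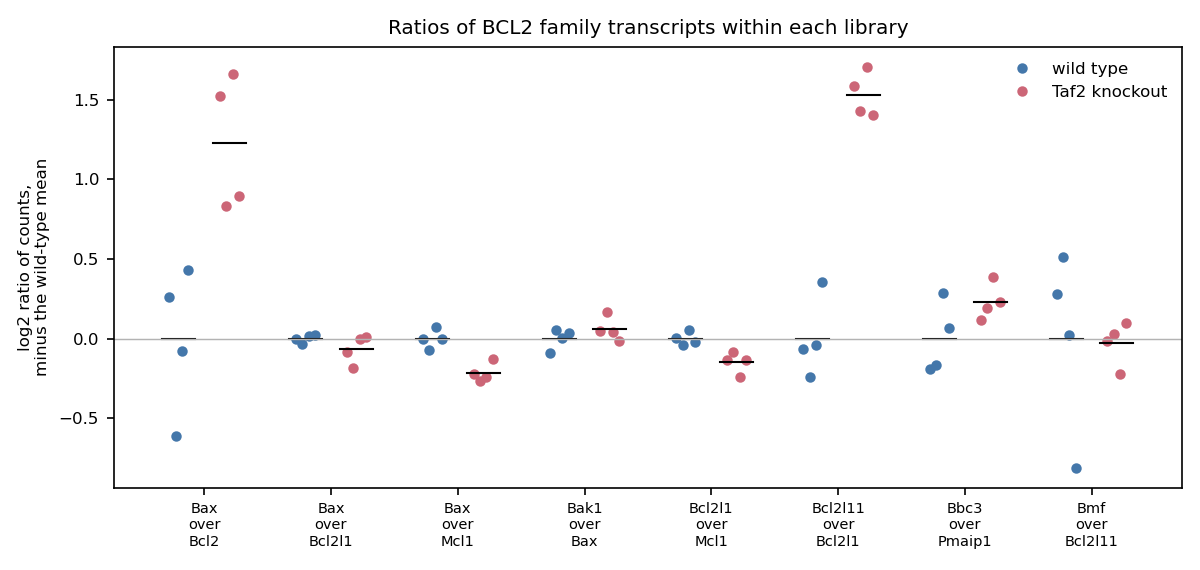
Log2 ratio of counts of 2 genes within each library, minus the mean of the 4 wild-type libraries. Points are libraries and lines are group means. The ratio of Bcl2l11 to Bcl2l1 lies 1.53 higher in the knockout, that of Bax to Mcl1 0.21 lower (a difference of -0.21), and that of Bmf to Bcl2l11 overlaps between the genotypes.

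Levels of different genes were compared per kilobase (kb) of annotated exon. In the wild type the order was Mcl1 at 82.01 ± 1.10 CPM per kb, Bax at 58.1 ± 2.46, Bcl2l1 at 50.4 ± 1.68, Bak1 at 33.5 ± 1.39 and Bid at 10.9 ± 0.473 CPM per kb (SD, n = 4). Below these stood Bbc3 at 5.78 ± 0.358, Pmaip1 at 3.37 ± 0.430, Bcl2l11 at 0.371 ± 0.063, Bmf at 0.258 ± 0.056 and Bcl2 at 0.197 ± 0.061 CPM per kb. Mcl1, Bax and Bcl2l1 cannot be ordered firmly, since with the longest transcript as the length Bcl2l1 came first at 90.04, ahead of Bax at 83.3 and Mcl1 at 82.01 CPM per kb. Bcl2l11, Bmf and Bcl2 lay close together, the ranges of mean ± SD overlapping between neighbours in that order. In the knockout Bcl2l11 reached 1.03 ± 0.089 and Bmf 0.690 ± 0.025 CPM per kb, while Bcl2 stood at 0.077 ± 0.022 CPM per kb.

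The BH3-only genes summed to 20.1 to 21.2 CPM per kb in the wild-type libraries and 24.06 to 25.2 CPM per kb in the knockout libraries, without overlap. Bid made up 52.7 ± 2.05% of that sum in the wild type and 45.7 ± 2.04% in the knockout. Bcl2l11 made up 1.80 ± 0.345% and 4.13 ± 0.402%, so that its rise left it a small part of the BH3-only transcripts. Bbc3 went from 27.9 ± 1.90% to 31.7 ± 1.92%. Effectors summed to 88.5 to 96.4 and 83.3 to 87.9 CPM per kb, without overlap, and pro-survival genes to 129.6 to 134.8 and 134.5 to 139.2 CPM per kb, with overlap. Bcl2 was 0.148% of the pro-survival sum in the wild type and 0.0566% in the knockout. The shares depend on the length used. With the longest transcript, Bid made up 59.2% of the BH3-only sum in the wild type and 51.8% in the knockout. Bcl2l11 then made up 2.19% and 5.08%, and Bbc3 25.0% and 28.6%.

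**Figure D4:**
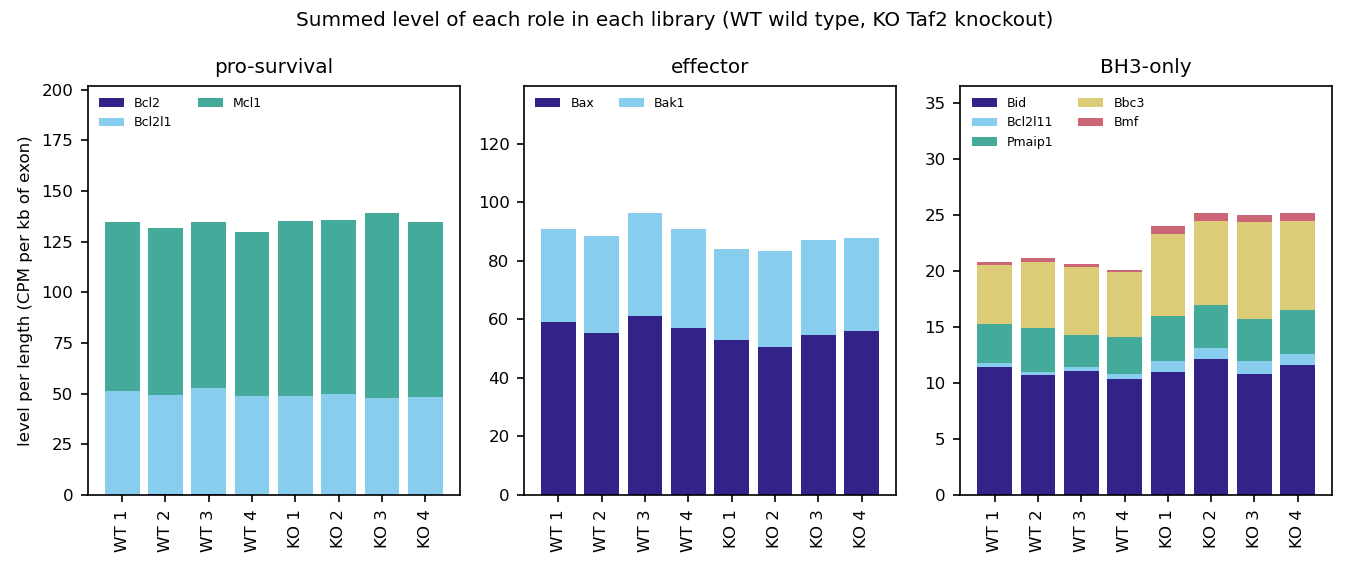
Summed level per length (CPM per kb of exon, axes from 0 and of different height) of the pro-survival, effector and BH3-only genes in each library, split by gene. The BH3-only sum is higher in each knockout library, at 24.06 to 25.2 against 20.1 to 21.2 CPM per kb, and the parts of Bcl2l11 and Bmf widen while Bid remains the largest part.

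In the GENCODE M21 annotation (build GRCm38, mm10) the members lie on 7 chromosomes. Bcl2 spans 106538178 to 106714274 on chromosome 1. Bmf (118528757 to 118549687), Bcl2l11 (128126038 to 128162547) and Bcl2l1 (152780668 to 152831728) lie on chromosome 2. Mcl1 spans 95658788 to 95663176 on chromosome 3 and Bid 120891930 to 120916853 on chromosome 6. Bbc3 (16308393 to 16318205) and Bax (45461697 to 45466898) lie on chromosome 7, and Bak1 spans 27019810 to 27029009 on chromosome 17. Pmaip1 lies on chromosome 18. Counts were whole for every member in all 8 libraries, where the estimation can divide a read between genes.

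Of 16 other listed family genes 10 passed the filter, and 4 of these were higher and 4 lower (median log2 fold change -0.10, against -0.0035 over all genes). Over all genes tested 30.2% were higher and 31.2% lower, so with 10 genes these counts are no result about the list. Bnip3 and Bnip3l, BH3-like proteins of the mitochondrial membrane that act as mitophagy receptors, rose from 215 ± 36.5 to 933 ± 72.2 CPM and from 100.4 ± 7.43 to 259 ± 13.3 CPM. Bcl2l14 rose from 25.3 ± 1.02 to 34.4 ± 2.01 CPM. Bcl2a1b, a pro-survival gene of blood cells with near-identical copies, had a mean of 0.069 CPM in wild-type libraries and 0.724 CPM after knockout, from at most 19 counts, which were not whole in 3 libraries. It is among the 4 higher genes, but it passed the filter only through the knockout libraries, so it could only be higher. Macrophage markers rose in the same libraries, and their part in the level of Bcl2a1b was not tested.

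The relatives that fell were the pro-survival gene Bcl2l2 (BCL-W; log2 fold change -0.16, SE 0.038), Bok, a BAX-like gene (-0.30, SE 0.055), Bcl2l12 (-0.64, SE 0.12) and the BH3-only gene Bad (-0.17, SE 0.066; edgeR adjusted p = 0.0293). The call on Bad held in 8 of 16 alternatives (adjusted p from 0.016 to 0.119) and ended with upper-quartile scaling, DESeq2 and thinning and without knockout replicate 2 or 3 or wild-type replicate 1, 3 or 4. Bik, another BH3-only gene, stood at 2.96 ± 0.307 and 2.35 ± 0.522 CPM (edgeR adjusted p = 0.0653; 0.015 without knockout replicate 2), and Bcl2l13 at 62.2 ± 1.15 and 60.2 ± 2.16 CPM (edgeR adjusted p = 0.279). The 6 relatives that did not pass the filter (Bcl2l10, Bcl2a1a, Bcl2a1c, Bcl2a1d, Hrk and Bcl2l15) held at most 14 counts in any library.

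Of 23 tested genes of the mitochondrial pathway, which mostly act when or after the pore opens, 9 were higher and 8 lower (median -0.023). These shares lie near the 30.2% and 31.2% of all genes. Apaf1, the scaffold of the apoptosome that assembles on released cytochrome c, rose from 17.9 ± 1.07 to 34.3 ± 0.759 CPM. The executioner caspase gene Casp6 rose from 10.7 ± 0.427 to 16.6 ± 0.8291 CPM, and Vdac1, which encodes the main channel of the outer mitochondrial membrane and was the most abundant gene of the list, rose by 0.31 on the log2 scale. Birc2, an inhibitor of apoptosis whose counts were not whole in 7 libraries, fell from 39.6 ± 0.627 to 21.2 ± 1.15 CPM. Htra2 and Aifm1, which encode proteins of the intermembrane space, fell, with log2 fold changes of -0.54 (SE 0.065) for Htra2 and -0.25 (SE 0.033) for Aifm1. Casp9, which encodes the caspase that the apoptosome activates and was named after its values were seen, averaged 20.3 ± 1.18 CPM in wild-type libraries and 20.00 ± 0.728 CPM after knockout and did not pass (edgeR adjusted p = 0.761).

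Of 15 tested genes of the death receptor pathway, which reaches mitochondria through BID, 4 were higher and 7 lower (median -0.083), against 30.2% and 31.2% of all genes. Casp8, which encodes the caspase that cleaves BID, fell from 27.7 ± 0.380 to 19.97 ± 1.59 CPM. Cyld, a deubiquitinase of the receptor complex, fell from 77.7 ± 0.408 to 50.8 ± 1.88 CPM, and the receptor gene Tnfrsf21 from 5.56 ± 0.128 to 2.16 ± 0.289 CPM. Cflar, the decoy of caspase-8 and the most abundant gene of the list, had a log2 fold change of -0.14 (SE 0.053; edgeR adjusted p = 0.0292), and its call held in 10 of 16 alternatives. It ended with upper-quartile scaling and without knockout replicate 1, 3 or 4 or wild-type replicate 2 or 3 (adjusted p up to 0.115). The TNF receptor gene Tnfrsf1b rose from 35.7 ± 0.759 to 57.8 ± 1.27 CPM and Mlkl, the effector of necroptosis, from 25.01 ± 1.02 to 35.9 ± 1.12 CPM. Ripk3, the kinase before MLKL, rose from 0.807 ± 0.227 to 1.29 ± 0.303 CPM (edgeR adjusted p = 0.0252), and its call held in 11 of 15 alternatives. It ended without knockout replicate 1 or 4 or wild-type replicate 2 or 3 (adjusted p up to 0.103).

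Among 35 tested genes that control the members' transcription, stability or binding, 13 were higher and 10 lower (median 0.031). In all 65.7% passed the test, close to the 61.4% of all genes. Huwe1 and Usp9x, the ubiquitin ligase and the deubiquitinase that act on MCL1 in opposite directions, both fell, from 580.2 ± 33.7 to 462 ± 22.7 CPM and from 298 ± 20.0 to 220 ± 13.5 CPM. Pim1 and Pim2, kinases that phosphorylate BAD, rose by 0.82 (SE 0.058) and 1.09 (SE 0.089) on the log2 scale. Prkaca, the catalytic subunit of protein kinase A, which also phosphorylates BAD, fell by 0.48 on the log2 scale. The transcription factor gene Cebpb rose from 88.4 ± 4.81 to 141 ± 7.54 CPM, and Tmbim6 (BAX inhibitor 1), the most abundant gene of the list, fell from 712 ± 12.3 to 637 ± 13.7 CPM. Apart from Cflar and Ripk3, the genes of these 3 lists that passed the test and are named here passed it in all 16 alternatives.

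**Figure D5:**
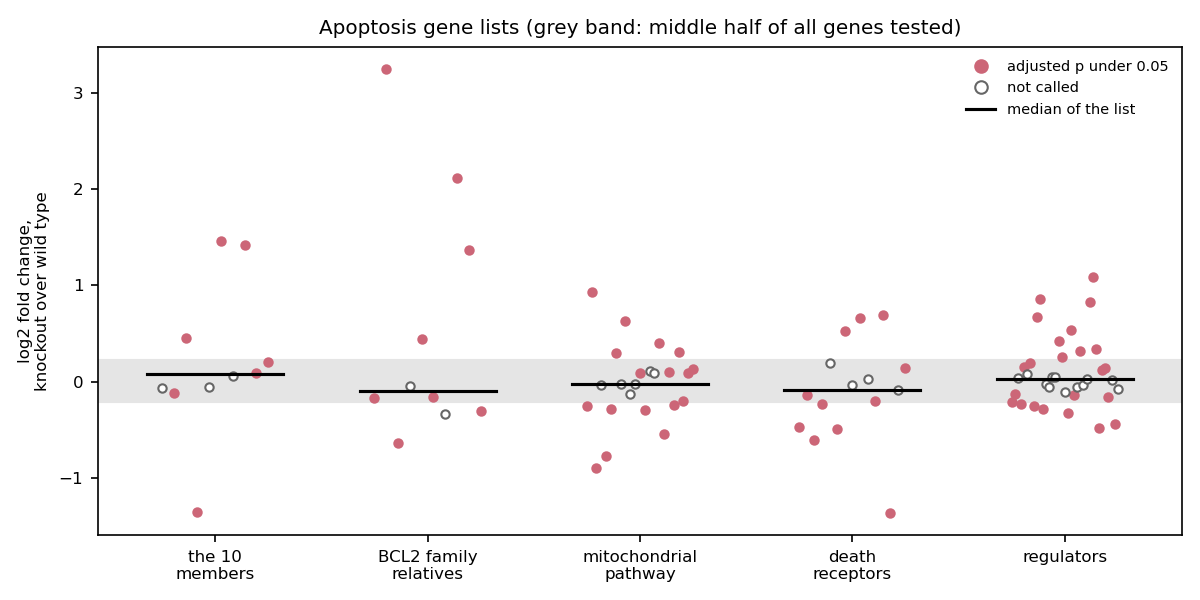
Log2 fold change, knockout over wild type, of each tested gene of the 10 members, their relatives, the mitochondrial pathway, the death receptor pathway and the regulators. Filled points have an edgeR adjusted p under 0.05, lines are list medians, and the grey band runs from the lower to the upper quartile of all genes tested, -0.21 to 0.22. List medians lie between -0.10 and 0.077, inside the band. The highest point, Bcl2a1b, rests on at most 19 counts in a library and passed the filter only through the knockout.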

How the data were processed

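Expected counts per gene (estimated counts that need not be whole) were deposited by the authors, which per the submitters' processing notes came from RSEM and build mm10. The sources used here name no RSEM version, aligner, trimming or strand setting. The 8 columns named for the samples were used, and 8 others that match no sample were not. Counts were rounded (2.85% of values were not whole), filtered by filterByExpr (at a minimum count of 10 and total of 15) and TMM-scaled, and the quasi-likelihood test of edgeR 4.0.16 (R 4.3.3) was run, with Benjamini-Hochberg adjustment over 12122 genes and a threshold of 0.05. SEs were derived from the log2 fold change and its F statistic. Library totals were 18947060 to 23933585 counts. Replicate libraries differed beyond sampling noise (chi-square per degree of freedom from 3.18 to 8.64). The spread beyond that noise was small, with a common biological coefficient of variation of 4.57% as edgeR estimates it. Lengths are unions of GENCODE M21 exons. The fit was also run on simulated data in which far fewer genes were changed than were called here. That run therefore does not test the scaling or the calls in these data. The members and gene lists were chosen with earlier results of these data known. Named genes are all members, all tested relatives and, of other lists, up to 3 called genes per direction with the smallest adjusted p and the most abundant gene. Foxo1, Foxo3 and Casp9 lie outside this rule and were named after their values were seen. Alternatives used RLE and upper-quartile scaling, DESeq2 1.42.0, limma-voom (limma 3.58.1), other filters, a replicate block, thinning and leaving out each library.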

Additional observations from a re-analysis of the deposited data

Results flagged for a closer look

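In knockout replicate 3 the level of Mcl1 was 312.9 CPM, apart from the other 3 knockout libraries. The gap to the nearest of them took a share of 0.857 of the range of the group, above Dixon's critical value for 4 libraries. It was the only one of 20 groups (10 genes in 2 genotypes) to pass it, and chance alone flags about 1 group in 20. Without that library the log2 fold change of Mcl1 was 0.077 (edgeR adjusted p = 0.0709).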

How the results depend on the processing

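Of 16 alternative settings, 8 left out 1 library each. Bcl2, Bcl2l11, Bbc3 and Bmf passed and Bcl2l1, Bak1 and Bid did not in all 16, which makes 7 of the 10 members on the same side of the threshold throughout. Mcl1, Bax and Pmaip1 lost their calls in 2, 3 and 7 settings. The count of members higher ran from 3 to 5 without single libraries (3 without wild-type replicate 4), and the count lower from 1 to 2 (1 without knockout replicate 2 or wild-type replicate 3). With DESeq2 4 members were higher, and with upper-quartile scaling 1 member was lower. The log2 ratio of Bmf to Bcl2l11 ran from -0.30 to 0.14 without single libraries. Casp9, which was never called, changed sign at 0.00094 with upper-quartile scaling, 0.0015 without wild-type replicate 3 and 0.0026 without knockout replicate 1, the range without single libraries being -0.059 to 0.0026. Replicate numbers are shared by the genotypes, but deviations of same-numbered libraries correlated only between -0.069 and 0.011. Of the 8 libraries, 0 correlated best with their own number. No pairing by number was thus seen. With so few libraries, this check cannot show that no litter, day or batch was shared. With the replicate block 5 members were higher and 2 lower, and over all genes 3666 and 3771 were, against 3663 and 3784 without it. By length, 8 of 10 members kept their rank with the longest transcript. Bcl2 and Bmf rest on as few as 12 and 20 counts in a library. The causes of these changes were not tested.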

Other observations

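The genes whose pattern was most like that of Bcl2l11 over the 8 libraries, by Pearson correlation of log2 CPM among 9446 genes of at least 5 CPM, were Stam (r = 0.9988), the predicted gene Gm6548 (r = 0.9981) and Isca1 (r = 0.9957). Those most like Bcl2 were Zfp426 (r = 0.994), Mink1 (r = 0.9922) and Ncoa1 (r = 0.9895). The 8 libraries form 2 groups by genotype, which raises r for genes that differ between the genotypes, and 712 genes lay above 0.95 for Bcl2l11 and 84 for Bcl2. With each genotype's mean removed, r was 0.974, 0.96 and 0.915 for the genes like Bcl2l11 and 0.974, 0.967 and 0.962 for those like Bcl2. These genes were picked as the highest of all candidates, and r rests on 4 libraries a genotype. Their log2 fold changes, 0.44, 0.82 and 0.37 for the genes like Bcl2l11 and -0.32, -0.15 and -0.14 for those like Bcl2, were smaller than those of the members. Gm6548 shared reads with other genes in all 8 libraries.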
